A study of Mus musculus with 16 samples.

Results

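The MHC class II presentation genes followed here were 9 genes of the 54532 listed for each library: H2-Aa, H2-Ab1, H2-Eb1, Cd74, H2-DMa, H2-DMb1, H2-DMb2, Ctss and Ciita. They were taken by gene name, a rule that uses no measured value, although the set was proposed with earlier results of these data known. All 9 passed the filter on low values in both experiments. RNA-seq was performed on pulmonary ECs, isolated from mouse lungs by magnetic beads as CD31+ cells after removal of CD45+ cells. In the first experiment, male wild-type C57/BL6J mice at 8 weeks of age received saline (n = 4) or LPS at 10 mg/kg (n = 6) by the intratracheal route. In the second, all mice received LPS at 2 mg/kg. Fgfr1 iΔEC/iΔEC mice (n = 3) carried loxP-flanked Fgfr1 and VE-cadherin-CreERT2, a tamoxifen-inducible Cre driven by an endothelial promoter, and were compared with Fgfr1 loxP/loxP littermates (n = 3). Lungs were taken after 24 h, and the second experiment had no saline group. Libraries held 13478726 to 19043015 reads on genes, and levels are in FPKM, the reads of a gene scaled to its length and to the reads of the library.

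MHC class II molecules are pairs of an α and a β chain that carry peptides from the endocytic pathway to the cell surface for CD4+ T cells. The invariant chain, encoded by Cd74, fills the groove of new molecules and guides them to endosomes, where cathepsin S cuts it down and the H2-DM dimer exchanges the remaining fragment for peptide. The genes of the α and β chains, the invariant chain and H2-DM are switched on together by CIITA. This coactivator binds no DNA itself but docks on factors at the X and Y boxes of class II promoters. B cells, dendritic cells and macrophages are the main expressing cells, and lung endothelial cells also express them.

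In the promoter sequences of RefSeq (GRCm38.p6), the letters of an X box followed by a Y box were found in H2-Aa and H2-Eb1 and in the related class II genes H2-Ob and H2-Eb2. These 4 stretches are shown because CIITA acts through boxes in this arrangement, 5′ to 3′ along the gene, with GCAAC (X box core) and ATTGG (Y box core, CCAAT on the other strand) in capitals. They lie at chr17:34287857-34287914 on the minus strand and at chr17:34305766-34305822, chr17:34238808-34238862 and chr17:34325533-34325589 on the plus strand.
H2-Aa: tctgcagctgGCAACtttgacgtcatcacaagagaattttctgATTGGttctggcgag
H2-Eb1: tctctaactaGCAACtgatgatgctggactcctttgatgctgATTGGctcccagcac
H2-Ob: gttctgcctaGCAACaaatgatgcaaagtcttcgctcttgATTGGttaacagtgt
H2-Eb2: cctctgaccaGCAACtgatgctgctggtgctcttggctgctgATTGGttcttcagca
In H2-Aa the X box letters began 81 bases before the start site and the Y box letters 48 bases before it. In H2-Eb1 these positions were 91 and 59, and the starts of the 2 boxes lay 33 bases apart in H2-Aa, 32 in H2-Eb1 and H2-Eb2 and 30 in H2-Ob. Such a pair, searched in the 250 bases before the start on both strands at a distance of 15 to 35 bases, was in 0.868% of 32851 promoters, whereas GCAAC or GTTGC was in 29.9% and ATTGG or CCAAT in 33.8%. H2-Oa held the pair as well. H2-DMb1 and H2-DMb2 held ATTGG, 61 and 90 bases before the start, without GCAAC, neither entry of H2-DMa held the pair, and the window of Ctss held neither motif. Only these exact letters were searched, so a box with other letters would have been missed. H2-Ab1, Cd74 and Ciita had no entry in the promoter table.

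After LPS, 1 of the 9 genes rose, 2 fell and 6 did not pass the test. Ctss was higher in every LPS library than in any saline library, at a mean of 724 FPKM against 49.7. Ciita was lower in every LPS library, at 1.08 FPKM against 4.35, and H2-DMb2 fell with overlapping groups. The classical chains, the invariant chain, H2-DMa and H2-DMb1 did not pass the test under the deposited scaling. A gene was called when its adjusted p from limma was at or under 0.05 and its log2 fold change was at least 1 in size. By that rule 11.9% of the 14893 genes tested were called higher and 6.79% lower, so 1 of 9 and 2 of 9 stand beside these shares. The adjusted p alone was at or under 0.05 for the same 3 members, against 53.2% of all genes. The groups did not overlap for 2 of the 9 members, Ctss and Ciita, against 39.4% of all genes. The median log2 fold change was -0.28 over the members and 0.01 over all genes tested.

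**Figure D1:**
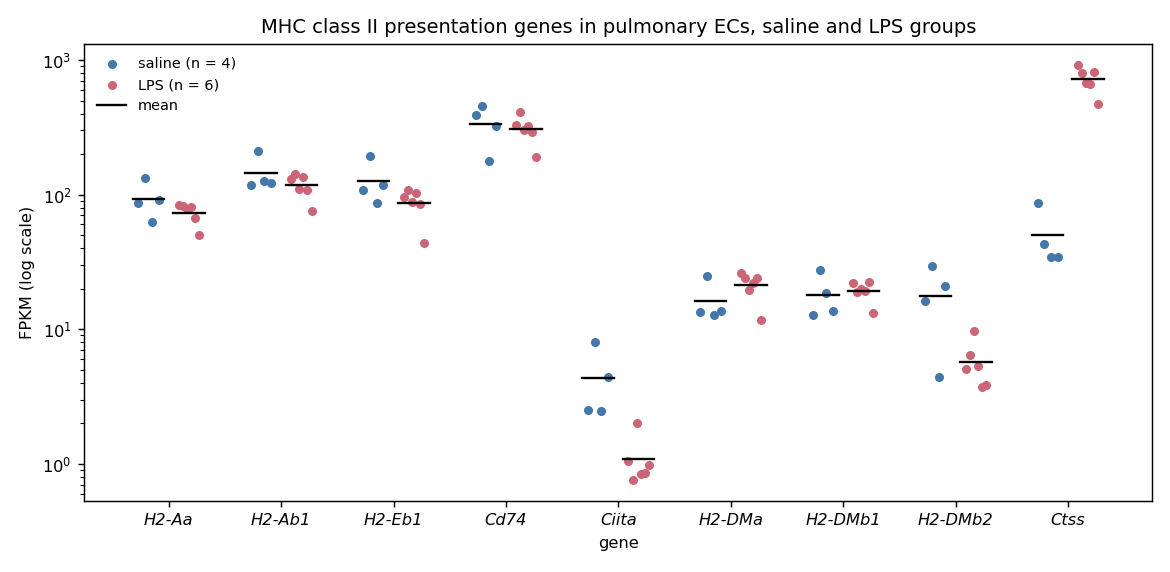
FPKM of the 9 genes on a log axis in each saline library (blue, n = 4) and LPS library (red, n = 6), with black bars for the mean. The LPS points of Ctss (471 to 922 FPKM) lie above all saline points and those of Ciita (0.756 to 1.99 FPKM) below them, and the other 7 genes overlap.

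Whether the whole module moved was read first from the chains that hold the peptide. H2-Aa, the α chain of I-A (GRCm38, as are all gene positions given, chr17:34282744-34287827), was at 86.4, 134, 62.5 and 90.6 FPKM in saline libraries 1 to 4, and at 49.98 (lowest), 79.3 (median) and 83.7 FPKM (highest) in the LPS group. Its log2 fold change was -0.31 (SE 0.21, 95% interval -0.78 to 0.16, limma adjusted p = 0.235). The LPS libraries lay inside the saline range except for LPS 6, the lowest of all. H2-Ab1, the β chain of I-A (chr17:34263209-34269418), was at 119, 209.6, 126 and 121 FPKM in the saline libraries and between 75.4 and 143 FPKM (median 121) after LPS. H2-Eb1, the β chain of I-E (chr17:34305877-34316199), was at 108, 194, 87.1 and 118 FPKM and then between 43.7 and 109 FPKM (median 91.9). For both, saline 2 was the highest library and LPS 6 the lowest, and the groups overlapped. Their log2 fold changes were -0.28 (SE 0.22, limma adjusted p = 0.292) and -0.52 (SE 0.28, limma adjusted p = 0.130).

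The invariant chain was the most abundant member in the saline group. Cd74 (chr18:60803848-60812646) was at 388, 454, 177 and 321 FPKM in saline libraries 1 to 4 and between 189 and 412 FPKM (median 315) after LPS. Here saline 3 was the lowest of the 10 libraries. The log2 fold change of -0.07 (SE 0.28) had a 95% interval from -0.69 to 0.55 (limma adjusted p = 0.843). Within a library the ratio of the I-A chains, H2-Ab1 to H2-Aa, was 1.33 to 2.02 in the saline group and 1.42 to 1.75 in the LPS group. The mean log2 ratios were 0.63 ± 0.27 (SD) and 0.66 ± 0.11 (exact permutation p = 0.819, two-sided, n = 4 and 6, adjusted p = 0.936 over the 8 ratios examined in both experiments).

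Ctss encodes cathepsin S, the protease that trims the invariant chain, and lies at chr3:95526786-95556403. It was at 86.8, 43.3, 34.2 and 34.4 FPKM in the saline libraries and at 471 (lowest), 736 (median) and 922 FPKM (highest) in the LPS group. By mean FPKM, a level per length, it was the fifth of the 9 genes in the saline group, after Cd74, H2-Ab1, H2-Eb1 and H2-Aa, and the first in the LPS group. In the saline group neighbours in this order overlapped except for Ctss above H2-DMb1 and H2-DMa above Ciita, and in the LPS group Ctss lay above Cd74 and Cd74 above H2-Ab1 without overlap. The log2 fold change was 3.92 (SE 0.28, 95% interval 3.31 to 4.53, limma adjusted p = 2.08e-06), a 14.6-fold difference of the means. The exact permutation p was 0.00952 (two-sided, n = 4 and 6), the smallest that these group sizes allow. The ratio of Ctss to Cd74 in a library went from 0.0954 to 0.223 in the saline group up to 1.94 to 2.80 in the LPS group (exact permutation p = 0.00952, n = 4 and 6, adjusted p = 0.0381).

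Ciita, the gene of the coactivator itself (chr16:10480059-10528418), was the least abundant member. It was at 2.51, 8.04, 2.47 and 4.39 FPKM in the saline libraries and between 0.756 and 1.99 FPKM (median 0.917) after LPS, from 117 to 346 reads per LPS library. All 6 LPS libraries lay below the lowest saline library. The log2 fold change on the log2(FPKM + 1) scale was -1.27 (SE 0.26, limma adjusted p = 0.00215), and this scale understates the change of a low gene, since the means differed 4.04-fold. The exact permutation p was 0.00952 (two-sided, n = 4 and 6). The ratio of Ciita to H2-Aa also fell, from 0.0290 to 0.0601 in the saline group to 0.00925 to 0.0255 in the LPS group (exact permutation p = 0.00952, n = 4 and 6, adjusted p = 0.0381). Saline 2 weighed on the size of the change. Without it the log2 fold change was -0.98, just short of the limit on the fold, with a limma adjusted p of 0.00398. When libraries were scaled to endothelial genes it was -0.73 (limma adjusted p = 0.0585), beside a median of 0.63 over all genes.

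Of the 3 H2-DM genes, whose product edits the peptide in the groove, 1 was called. H2-DMa, the α chain (chr17:34135182-34139101), was at 13.5, 24.8, 12.7 and 13.5 FPKM in the saline libraries and between 11.8 and 26.1 FPKM (median 23.1) after LPS, with a log2 fold change of 0.39 (SE 0.24, limma adjusted p = 0.179). H2-DMb1, one of 2 β chain genes (chr17:34153072-34160230), was at 12.7, 27.5, 18.5 and 13.5 FPKM and then between 13.1 and 22.3 FPKM (median 19.4), with a log2 fold change of 0.13 (SE 0.21, limma adjusted p = 0.633). In both genes 5 of the 6 LPS libraries lay between the lower 3 saline libraries and the highest one or just above it, and LPS 6 was low.

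H2-DMb2, the other β chain gene (chr17:34143307-34151553), fell. It was at 16.1, 29.5, 4.42 and 21.0 FPKM in saline libraries 1 to 4 and at 3.75 (lowest), 5.18 (median) and 9.69 FPKM (highest) in the LPS group. Only saline 3 lay within the LPS range. The log2 fold change was -1.30 (SE 0.41, 95% interval -2.21 to -0.39, limma adjusted p = 0.0211), and the exact permutation p was 0.0476 (two-sided, n = 4 and 6). The ratio of H2-DMb2 to H2-DMb1 was 1.26, 1.07, 0.239 and 1.55 in the saline libraries and 0.168 to 0.491 in the LPS group (exact permutation p = 0.0476, n = 4 and 6, adjusted p = 0.127). The call was lost without saline 2 (-0.98, limma adjusted p = 0.0722), without saline 4 (-1.14, 0.0648), with the replicate block (-1.09, 0.119) and with no filter on low values (-1.30, 0.0577). It was also lost with scaling to endothelial genes (-0.58, limma adjusted p = 0.270), beside a median of 0.63 over all genes. In GENCODE M21 transcripts, 22.65% of the 50-base windows of H2-DMb1 and 11.34% of its 100-base windows recurred in H2-DMb2, and reads within such stretches could not be assigned to one gene with certainty.

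**Figure D2:**
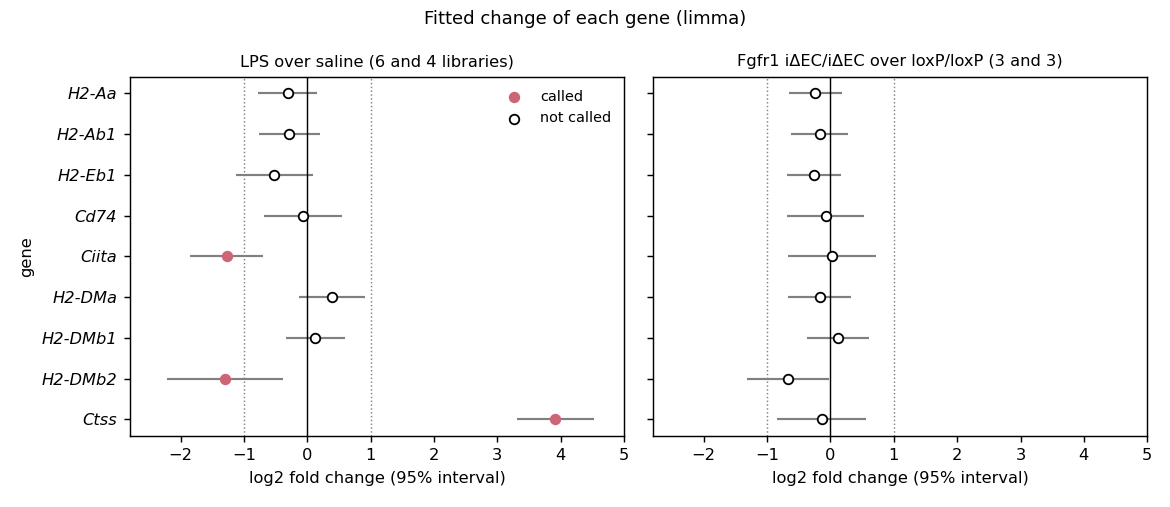
Log2 fold change of each gene with its 95% interval from limma, for LPS over saline on the left and for Fgfr1 iΔEC/iΔEC over loxP/loxP on the right. Filled points were called and dotted lines mark a log2 fold change of 1 in either direction. On the left Ctss (3.92), Ciita (-1.27) and H2-DMb2 (-1.30) are filled, and on the right none is.

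The direction of 5 of the 6 uncalled members, all but H2-DMa, changed under at least 1 scaling of the libraries. Under the deposited scaling 1768 genes were called higher and 1011 lower. With each library set to the same total FPKM these were 1566 and 3099, with quantile normalization 1366 and 1326, and with scaling to the 10 endothelial genes 4770 and 176. The median of all genes then moved to -0.33, -0.08 and 0.63. Scaled to endothelial genes, H2-Aa (0.48), H2-Ab1 (0.52), H2-Eb1 (0.27) and Cd74 (0.73) changed sign without being called, beside that median of 0.63 over all genes. H2-DMa (1.15, limma adjusted p = 0.0137) was then called higher, and H2-DMb1 (0.89, 0.0352) passed the adjusted p but not the limit on the fold. H2-DMb1 turned to -0.21 with equal total FPKM and to -0.20 with quantile normalization, where H2-Eb1 was called lower (-1.12, limma adjusted p = 0.00534). Under quantile normalization H2-Aa (-0.88, limma adjusted p = 0.00893), H2-Ab1 (-0.91, 0.00403) and Cd74 (-0.68, 0.0412) also passed the adjusted p but not the limit on the fold, beside a median of -0.08 over all genes. With equal total FPKM H2-Eb1 (-0.87, limma adjusted p = 0.0301) and H2-Ab1 (-0.63, 0.0470) did so too, beside a median of -0.33. Ctss kept its call under every scaling tried, at 3.47 to 4.71 over all alternatives.

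**Figure D3:**
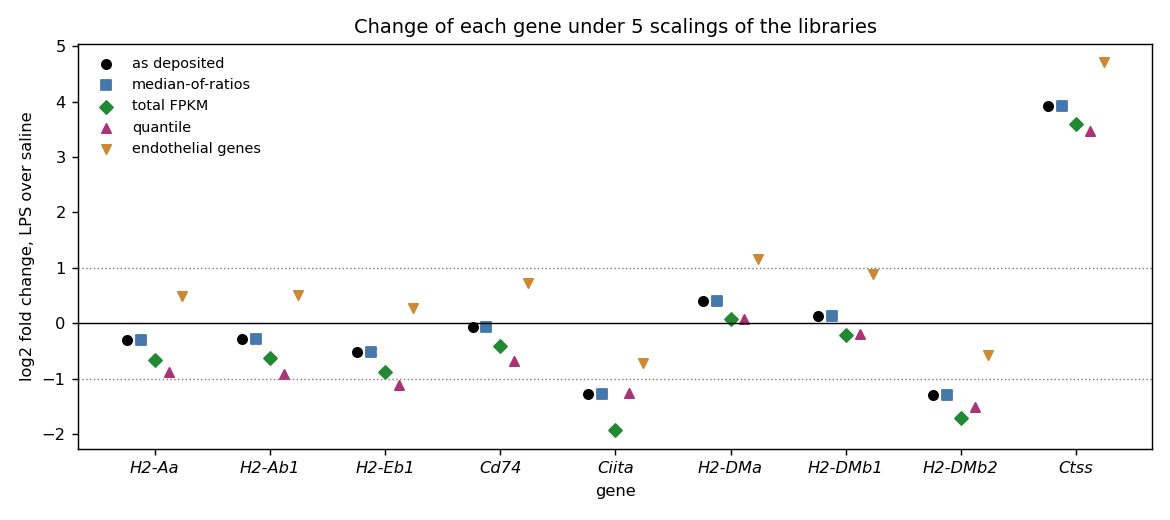
Log2 fold change of LPS over saline for each gene under 5 scalings of the libraries, with dotted lines at a log2 fold change of 1 in either direction. Ctss stays above 3 and Ciita and H2-DMb2 stay below 0 under each, whereas H2-Aa, H2-Ab1, H2-Eb1 and Cd74 lie below 0 except with scaling to endothelial genes.

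Of the other class II genes of the same locus, H2-Ob was called lower and none of the 3 tested was called higher. H2-Ob encodes the β chain of H2-DO, which inhibits H2-DM, and went from 19.3 ± 11.3 FPKM (SD, n = 4) to 3.70 ± 1.99 (n = 6), with a log2 fold change of -1.97 (adjusted p = 0.00240 by limma). H2-Oa, its α chain, had a log2 fold change of -0.76 (adjusted p = 0.0297 by limma) and H2-Eb2 one of -0.72 (0.0787). Without saline 3, 2 of the 3 were called lower. H2-Ea-ps had at most 2 reads in a library of this experiment. It is the remnant of the I-E α chain, which C57/BL6J mice lack. The H2-Eb1 transcript therefore has no partner for a surface molecule in these animals.

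None of the 7 promoter factors on the list (RFX, NF-Y and CREB1 subunits) was called, and their log2 fold changes lay between -0.46 and 0.46. Nfyc, a subunit of NF-Y, alone had an adjusted p under the limit, at 0.46 (limma adjusted p = 0.00368). In the path from interferon-γ to CIITA, 1 of 7 genes was called. Socs1, which inhibits the JAK kinases of this path, rose from 1.19 ± 0.234 FPKM (SD, n = 4) to 4.06 ± 0.928 (n = 6). The count was 4 with scaling to endothelial genes, 3 with the replicate block or without saline 1, and 2 without saline 3, saline 4, LPS 5 or LPS 6. The receptor genes Ifngr1 (0.99) and Ifngr2 (0.96) and the kinase gene Jak2 (0.88), named after their values were seen, fell short of the limit on the fold with limma adjusted p of 9.30e-05, 0.000252 and 0.00224. Irf1, which drives the interferon-responsive Ciita promoter, had a log2 fold change of -0.45 (adjusted p = 0.0470 by limma). Ifng itself had at most 6 reads in a library and was not tested.

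Of 8 genes of endosomal processing 7 were called higher, with a median log2 fold change of 1.21 over the list. The largest were Ctsz (2.79), Ifi30 (2.70), which encodes a thiol reductase that opens antigens, Ctsb (2.63) and Ctsh (1.26). Ctsl, which trims the invariant chain in thymic epithelium, had a log2 fold change of -0.07 (adjusted p = 0.748 by limma). With equal total FPKM or quantile normalization 3 of the 8 were called. Of 9 genes of class II turnover and costimulation, 6 were called higher and none lower. They included the ligands Cd80 (2.99), Cd274 (2.78) and Cd86 (1.78), and March1 (1.88), a ubiquitin ligase that takes class II molecules off the surface. Its relative March8 had lower values without overlap, at 9.25 ± 0.578 FPKM (SD, n = 4) and 6.57 ± 0.682 (n = 6), with a log2 fold change of -0.44 under the limit (adjusted p = 0.00364 by limma). Of 10 MHC class I genes, 2 were called higher, B2m (1.28), the light chain, and the immunoproteasome subunit Psmb8 (1.04). This count was 0 with equal total FPKM and with quantile normalization and 7 with scaling to endothelial genes, and 1 without saline 4 or LPS 2. Nlrc5, the coactivator of class I, had a log2 fold change of -0.42 (adjusted p = 0.239 by limma).

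Markers of other cells moved with LPS, although CD45+ cells had been removed. Pecam1, which encodes the CD31 used to isolate the cells, was at 400 ± 81.5 FPKM (SD, n = 4) in the saline and 358 ± 76.8 (n = 6) in the LPS group. It was among the least changed of the endothelial genes (-0.17), whose median log2 fold change was -0.83. The share of endothelial cells in each library was not tested. Of 10 endothelial genes 4 fell, led by Kdr (-1.63), or 2 without LPS 1, 6 with equal total FPKM and 8 with quantile normalization, and the group sums overlapped (3225 to 5678 and 1372 to 3245 FPKM, Cldn5 the most abundant). Ptprc, which encodes CD45, rose from 6.97 ± 3.13 FPKM to 34.6 ± 11.4, and all 6 leukocyte genes rose. Of 12 macrophage and monocyte genes 10 rose, among them C1qa (5.11), Itgam (5.08), Csf1r (4.81) and Adgre1 (4.36). Their sum went from 77.6 to 145 FPKM in the saline libraries to 767 to 1741 FPKM after LPS, with Chil3 the most abundant and none at 0 in all libraries. Of 8 neutrophil genes 6 rose, with saline 1 at a sum of 1401 FPKM against 74.0 to 311 in the other saline libraries. Macrophages and monocytes express Ctss, and the part of these cells in its rise was not tested. In bulk RNA, fewer cells of a type and less RNA per cell cannot be told apart.

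Of 10 B cell genes 8 fell and none rose, including Blk (-1.73), Cd79a (-1.57) and Fcmr (-1.57). Their sum was 179, 268, 38.9 and 223 FPKM in saline libraries 1 to 4, with Cd79a the most abundant, and between 27.7 and 85.6 FPKM after LPS. Saline 3 was thus low in B cell genes as it was in H2-DMb2. Without saline 2 or without saline 4, 2 of the 10 genes were called, and 5 without saline 1. The count was 2 with scaling to endothelial genes, 3 with the replicate block and 4 with no filter on low values. Of 5 dendritic cell genes tested Itgax (2.95) and Batf3 (2.04) rose. Clec9a, the most abundant of the list in the saline group, was at 33.6 ± 11.3 FPKM (SD, n = 4) and 15.9 ± 4.06 (n = 6). Its log2 fold change of -0.997 fell just short of the limit (adjusted p = 0.00857 by limma). Ccr7 (-0.68) and Zbtb46 (-0.24) had adjusted p of 0.240 and 0.396. With equal total FPKM 2 genes of the list were called higher and 2 lower. Flt3, Xcr1, Cd209a, Siglech and Itgae stayed below the filter, Flt3 at 0.321 ± 0.25 FPKM (SD, n = 4) and 0.150 ± 0.0669 (n = 6). None of the 6 T and NK cell genes tested was called. Of 8 alveolar type 2 genes Sftpd (1.42) rose and Sftpc (-2.30) fell, and with quantile normalization 3 fell and none rose. Their sum, with Sftpc the most abundant, did not overlap, at 1012 to 2496 FPKM in the saline and 264 to 898 FPKM in the LPS libraries.

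The members differed in which marker genes they followed from library to library. Within groups, after subtraction of each group's mean, H2-DMb2 tracked the mean of 9 B cell genes with Pearson's r = 0.994 and Spearman's rho = 0.982 over 16 libraries. The value of r was 0.996 over the 10 libraries of the first experiment, 0.989 over the 6 of the second and 0.986 without the 2 libraries farthest from the median. H2-DMb1 gave r = 0.01 with the same genes, 0.14 in the first experiment and -0.71 in the second. Ctss followed the leukocyte genes (r = 0.91), the macrophage and monocyte genes (r = 0.84) and the neutrophil genes (r = 0.80). Ciita ran against the neutrophil genes (r = -0.79, rho = -0.83), the alveolar type 2 genes (r = -0.67, rho = -0.83) and the macrophage and monocyte genes (r = -0.62). With the B cell genes Ciita gave r = 0.73 in the first experiment and -0.72 in the second. H2-Aa gave r = 0.72 with the B cell genes, which came to 0.45 without the 2 farthest libraries. Cd74 gave like values with the leukocyte (0.66), B cell (0.67) and T and NK cell genes (0.66). With the endothelial genes r lay between -0.44 (Ctss) and 0.07 (Ciita) over 16 libraries. In the first and second experiments it was -0.24 and 0.90 for Ciita, -0.47 and 0.90 for H2-DMb1, and -0.27 and -0.94 for Ctss. These values are descriptions, since the genes share libraries and depth, and the part of B cells in the fall of H2-DMb2 was not tested.

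**Figure D4:**
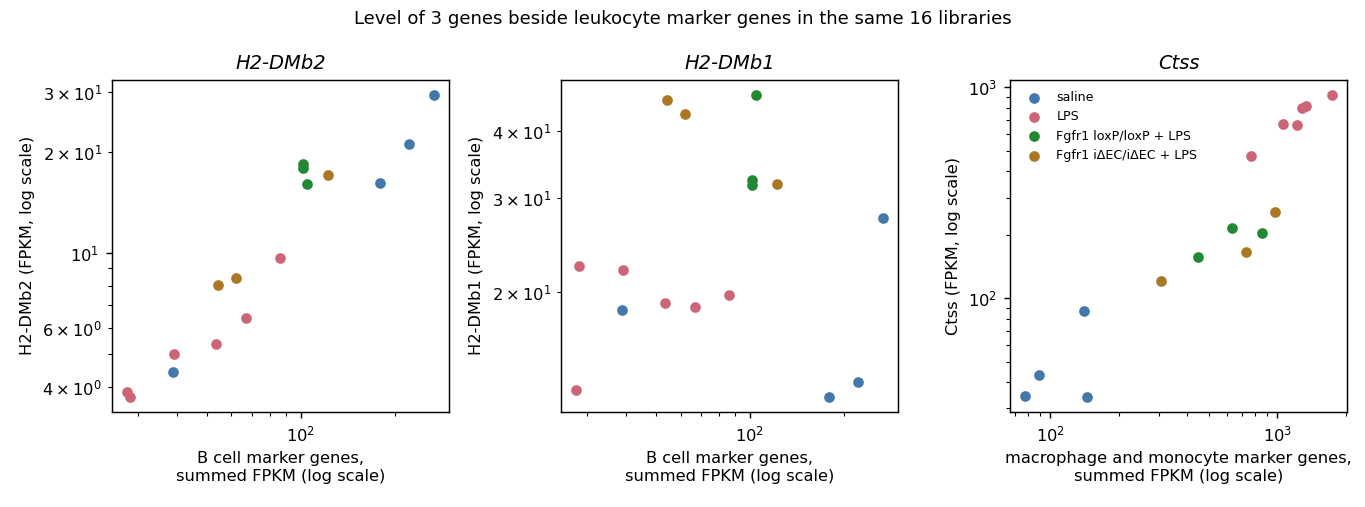
FPKM of H2-DMb2 and H2-DMb1 against the summed FPKM of 10 B cell genes, and of Ctss against that of 12 macrophage and monocyte genes, all on log axes, 1 point per library in 4 groups from 2 separately normalized tables. The points of H2-DMb2, between 3.75 and 29.5 FPKM, rise with the B cell sum within each experiment, but not along 1 shared line. The loxP/loxP libraries had 15.99 to 18.3 FPKM at sums of 102 to 105 FPKM, and saline 1 had 16.1 FPKM at 179. The points of H2-DMb1 do not rise in this way, and those of Ctss in the LPS group lie at the upper right.

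The classical genes moved together within groups. H2-Aa and H2-Eb1 gave r = 0.95 over 16 libraries, H2-Ab1 and H2-Eb1 0.92, H2-Aa and Cd74 0.89 and H2-Ab1 and H2-DMa 0.92. Ciita gave r of 0.35 to 0.50 with the chains and Cd74, and Ctss 0.10 to 0.45. Outside the members, the genes most like the mean of H2-Aa, H2-Ab1, H2-Eb1 and Cd74 among 12319 genes were Rfc4 (r = 0.84), Taf1b (0.82), Ltb (0.80), Igkv6-25 (0.78), Neurl3 (0.77), Wrap53, Fam69a (both 0.77), Trim59 and Fig4 (both 0.76). Dnajc19-ps, Cenpq, Pqlc2, Ufsp2, Map4k1 and Ccm2 followed at 0.74 to 0.76.

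The second comparison addressed whether loss of endothelial Fgfr1 changed the same genes under LPS. The targeted gene was examined first. Fgfr1 was at 2.90, 2.91 and 2.59 FPKM in Fgfr1 loxP/loxP mice and at 0.683, 1.41 and 1.15 FPKM in Fgfr1 iΔEC/iΔEC mice, so the groups did not overlap and lay as the labels say (log2 fold change -0.88, SE 0.16, limma adjusted p = 0.960). None of the 9 class II members was called, and 0% of the 14944 genes tested were. At an unadjusted p under 0.05 limma counted 663 genes (4.44%) and 1 member, H2-DMb2, and limma-voom on reads recovered from the FPKM values called 0 genes as well, with 608 at an unadjusted p under 0.05. In the fit with replicate numbers as pairs 0 genes were called and 1150 had an unadjusted p under 0.05, and with 1 library left out this number ran from 402 without iΔEC/iΔEC 1 to 1075 without iΔEC/iΔEC 2. No member had groups that did not overlap, against 10.2% of all genes. The exact permutation test cannot go below p = 0.1 with 3 against 3.

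**Figure D5:**
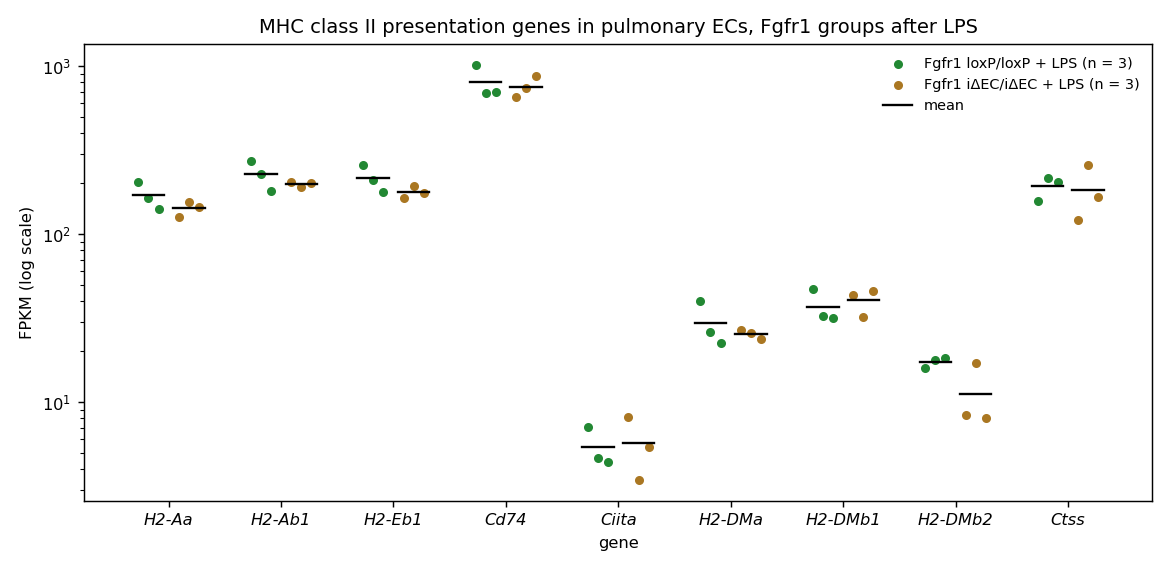
FPKM of the 9 genes on a log axis in Fgfr1 loxP/loxP (green, n = 3) and Fgfr1 iΔEC/iΔEC mice (brown, n = 3), all given LPS, with black bars for the mean. The groups overlap for every gene, and for H2-DMb2 the iΔEC/iΔEC libraries split into 8.42 and 8.02 FPKM and 17.03 FPKM.

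Cd74 was again the most abundant class II gene, at 1016, 693 and 698 FPKM in Fgfr1 loxP/loxP mice and 649, 741 and 869.8 FPKM in Fgfr1 iΔEC/iΔEC mice. Its log2 fold change was -0.08 (95% interval -0.69 to 0.53). H2-Aa was at 203, 165 and 141 FPKM against 127, 155 and 145 (-0.24, interval -0.66 to 0.19). The means of H2-Ab1 were 226 ± 46.7 FPKM (SD, n = 3) and 198 ± 7.85 (n = 3), and those of H2-Eb1 215 ± 40.7 and 178 ± 14.6. LoxP/loxP 1 was the highest library for each of these 4 genes. A difference of 1 on the log2 scale lay outside the interval for all of them.

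Ciita was at 7.14, 4.63 and 4.38 FPKM in Fgfr1 loxP/loxP mice and 8.18, 3.44 and 5.41 FPKM in Fgfr1 iΔEC/iΔEC mice (0.03, interval -0.67 to 0.72). Ctss was at 158, 215 and 203 FPKM against 121, 258 and 166 (-0.14, interval -0.84 to 0.57). H2-DMa and H2-DMb1 had log2 fold changes of -0.17 and 0.12. The iΔEC/iΔEC libraries spanned the loxP/loxP range for Ciita and Ctss.

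H2-DMb2 had the largest difference, at 15.99, 17.8 and 18.3 FPKM against 8.42, 17.03 and 8.02 FPKM. Its log2 fold change was -0.67 (95% interval -1.31 to -0.03, limma p = 0.0429 unadjusted and adjusted p = 0.960), and the exact permutation p was 0.2 (two-sided, n = 3 and 3). In the fit blocked by replicate number the limma p was 0.0302 and the adjusted p 0.617, and the iΔEC/iΔEC library was the lower one in 3 of 3 pairs. H2-Eb1 was also lower in 3 of 3 pairs, at 258 and 164, 211 and 193, and 177 and 176 FPKM, the last nearly equal. Its log2 fold change was -0.26 (95% interval -0.69 to 0.17, limma adjusted p = 0.960). The share of all genes with 1 direction in 3 of 3 pairs is not given here, so such counts are descriptions. The B cell genes summed to 105, 102 and 102 FPKM in the loxP/loxP libraries and to 62.1, 122 and 54.2 FPKM in the iΔEC/iΔEC libraries. Fgfr1 iΔEC/iΔEC 2 was therefore high in both and the other two were low in both. The 12 macrophage and monocyte genes overlapped between the groups, at 445 to 856 and 307 to 979.9 FPKM, and so did the endothelial genes, at 2333 to 2967 and 2638 to 3726 FPKM, although their sum was higher in the iΔEC/iΔEC library of 3 of 3 pairs. The 8 T and NK cell genes did not overlap, at a sum of 20.1 to 29.5 FPKM in the loxP/loxP and 15.3 to 19.6 FPKM in the iΔEC/iΔEC libraries. The 8 alveolar type 2 genes overlapped, at 818 to 1759 and 374 to 979 FPKM, with a median log2 fold change of -0.95 and the iΔEC/iΔEC library lower in 3 of 3 pairs. The 8 neutrophil genes overlapped as well, at 1167, 2559 and 2571 FPKM against 751, 2454 and 1525 FPKM, lower in 3 of 3 pairs and with a median log2 fold change of -0.47. The part of these cells in the values above was not tested. No gene of any list examined was called in this comparison.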

How the data were processed

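Libraries came from pulmonary ECs and were sequenced on an Illumina NovaSeq instrument. The authors aligned reads to GRCm38 with HISAT2 (2.0.5), counted them per gene with featureCounts (1.5.0-p3) and deposited FPKM, which divide reads by gene length and library size. The strand setting of the counting is not given in the sources used here. Whole reads could be recovered for 100% of values (tolerance 0.01), with 13478726 to 19043015 reads on genes per library and at least 111 reads for any value of a member or of Fgfr1. The study's methods name a test on counts. Since FPKM were deposited, limma (3.58.1, R 4.3.3) was fitted to log2(FPKM + 1) within each table, keeping genes that averaged 0.5 FPKM or more, with Benjamini-Hochberg adjustment over all genes tested. Fold changes are on that scale. Single genes and ratios were also tested by exact permutation, two-sided (scipy 1.17.1). Named genes were the 9 members, up to 4 called genes with the largest change per list, the 15 genes most like the classical members, and a few that define a list. The members and lists were chosen with earlier results of these data known, and the 4 ratios after the values were seen. In the second experiment libraries with the same number deviated together (r = 0.18 to 0.25 against -0.14 to -0.04 for other pairs). Group means were subtracted first, so a higher r for equal numbers lowers the r of other pairs, and the 2 ranges are not independent. The labels state no pairing. The numbers were taken as pairs on the data alone, and the fit with the replicate block was run as an alternative. The labels do not say whether each library was 1 animal, so p-values measure the spread between libraries. H2-DMa overlaps Brd2, Ciita overlaps Dexi and H2-Eb1 overlaps an antisense gene, each on the opposite strand. Without the strand setting it is not known whether reads in these overlaps were told apart. Other scalings, filters, pseudocounts and left-out libraries were tried.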

Additional observations from a re-analysis of the deposited data

Results flagged for a closer look

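Of 18 groups of values examined in the first experiment (9 genes in the saline and LPS groups), 6 held 1 library far from the others, where chance flags about 1 in 20 groups. The 18 are not independent, since the genes moved together from library to library. In the saline group this was saline 2, at 209.6 FPKM for H2-Ab1 against 119 to 126 in the other libraries and at 24.8 FPKM for H2-DMa against 12.7 to 13.5. In the LPS group LPS 6 was low, at 43.7 FPKM for H2-Eb1 (others 84.6 to 109), 11.8 FPKM for H2-DMa (others 19.6 to 26.1) and 13.1 FPKM for H2-DMb1 (others 18.8 to 22.3). LPS 3 was high for Ciita, at 1.99 FPKM against 0.756 to 1.05. LPS 6 also had the lowest sum of leukocyte genes in its group, 641 FPKM against 1049 to 1554, and LPS 3 the highest sum of B cell genes, 85.6 FPKM. The part of either in these values was not tested.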

How the results depend on the processing

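The count of all genes called after LPS, 2779 as reported, was 7928 with no limit on the fold change, 4171 with a pseudocount of 0.1, 4665 with equal total FPKM, 4946 with scaling to endothelial genes and 4363 with limma-voom on recovered reads. Called members numbered 1 to 3 when 1 library was left out, 1 being without saline 2. Signs that changed in the LPS comparison were those of H2-Aa (0.48), H2-Ab1 (0.52), H2-Eb1 (0.27) and Cd74 (0.73) with scaling to endothelial genes, and of H2-DMb1 with equal total FPKM (-0.21), quantile normalization (-0.20) and without both saline 1 and saline 3 (-0.032), a setting chosen after seeing the data. With that setting 3 members were called. With 1 library left out Cd74 ranged from -0.35 to 0.10 and H2-DMb1 from -0.011 to 0.34. H2-DMb2 was not called with no filter on low values (limma adjusted p = 0.0577). With the replicate block in the first experiment 2 members were called, H2-DMb2 (adjusted p = 0.119) was lost and Cd74 was at 0.10. Libraries there share only a number (r of -0.21 to 0.10 for equal numbers). In the second experiment the replicate block changed no call, all counts staying at 0. Scaling to endothelial genes gave -0.19 for Ciita and -0.12 for H2-DMb1 there, and with 1 library left out Cd74 ranged from -0.19 to 0.11, H2-DMa from -0.34 to 0.063, Ciita from -0.23 to 0.29 and Ctss from -0.42 to 0.12. The differences between groups in mean log2 ratio also varied with 1 library left out. For H2-Ab1 to H2-Aa the difference ranged from -0.042 to 0.16 in the first experiment and from -0.037 to 0.16 in the second. In the second experiment the difference for Ciita to H2-Aa ranged from -0.13 to 0.64 and that for Ctss to Cd74 from -0.38 to 0.12. For H2-DMb2 to H2-DMb1 in the first experiment the difference, LPS minus saline, ranged from -2.17 to -1.27. Depth was not limiting for the members, the lowest value resting on 115 reads.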
